A study of Mus musculus with 7 samples.

Results

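The promoters of 10 genes of the TGF-β pathway were examined in DNase-Seq data of mouse podocytes. They comprised the ligand genes *Tgfb1*, *Tgfb2* and *Tgfb3*, the activator of latent ligand *Thbs1*, the receptor genes *Tgfbr1* and *Tgfbr2*, and the signal transducers *Smad2*, *Smad3*, *Smad4* and *Smad7*. The genes were chosen by name, and each was represented by the peaks that overlapped 500 nt on either side of any of its protein-coding transcription start sites (TSSs), of which the 10 genes have 27. A promoter peak was present in every list for all 10, as it was for 21835 of the 21853 protein-coding genes of the annotation, so that the presence of a peak did not set them apart. They had 19 promoter peaks under NG, 21 under HG+NT and 21 under HG+miR-93.

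TGF-β is secreted in a latent form that thrombospondin-1, the product of *Thbs1*, can activate. The active ligand binds the type II receptor, which phosphorylates the type I receptor, and this in turn phosphorylates the receptor Smads, Smad2 and Smad3, which enter the nucleus with the common partner Smad4. Smad7 blocks the type I receptor. In the glomerulus the pathway is known for driving deposition of extracellular matrix and for injury of podocytes, the epithelial cells that form the filtration slits.

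The cells were differentiated podocytes of a conditionally immortalised line, arrested in low serum and then kept for 36 h at 5 mM glucose and untransfected (NG), or at 25 mM glucose after transfection with a mimic at 50 nM, which was either nontargeting (HG+NT) or that of miR-93 (HG+miR-93). NG and HG+NT thus differed in glucose and in transfection, whose parts cannot be told apart. DNaseI cuts DNA that is free of nucleosomes, and each condition had 2 replicates, with 1 sample of genomic DNA as input, but the peaks were given as 1 joint list per condition. No spread between replicates could therefore be set beside a difference, and no test between conditions was made. Each peak carries a fold. It was read as the summit's fragments, scaled to the depth of the input, over the local mean of the input, with 1 added to each. This relation was inferred from the values. For every gene the promoter peak with the highest fold was taken from each list, and its fold was expressed as a percentile of the 21835 genes, from 0 for the lowest to 100 for the highest. The fragments behind a fold were recovered from the fold and its p, and their number, scaled down to the sequencing depth of the input, is called the pileup. The HG+NT list was 1.72 times and the HG+miR-93 list 2.30 times as deep as that of NG. The intervals of pileups and percentiles are 95% exact Poisson intervals of the fragments. Those of ratios are 95% exact binomial intervals of the 2 fragment counts. The interval of a percentile change joins the outer limits of both percentiles and is therefore wider than a 95% interval. All cover the counting error of the lists and neither that of the input nor any difference between cultures.

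The sequence of 5 of the 10 promoters was taken from the RefSeq promoters of GRCm38.p6, the build of the peaks, over the 250 bases before the start site. The elements searched, on both strands, were the Smad palindrome GTCTAGAC, the Smad elements CAGAC and GGCGC, the AP-1 element TGANTCA, the Sp1 box GGGCGG, the TATA box TATAAA and the E-box CACGTG. Of these, GGGCGG and GGCGC can overlap. The promoters of *Tgfbr1*, *Tgfb1* and *Smad3*, whose windows held the summit of the highest fold in at least 1 list, are shown with that of *Tgfb2*, which is poorer in G and C, and capitals mark every match. *Tgfbr1* lies on the plus strand at chr4:47352972-47353221, *Tgfb1* on the plus strand at chr7:25686752-25687001, *Smad3* on the minus strand at chr9:63757995-63758244 and *Tgfb2* on the minus strand at chr1:186705990-186706239, and all are written 5′ to 3′ with the last base, position −1, next to the start site.
Tgfbr1: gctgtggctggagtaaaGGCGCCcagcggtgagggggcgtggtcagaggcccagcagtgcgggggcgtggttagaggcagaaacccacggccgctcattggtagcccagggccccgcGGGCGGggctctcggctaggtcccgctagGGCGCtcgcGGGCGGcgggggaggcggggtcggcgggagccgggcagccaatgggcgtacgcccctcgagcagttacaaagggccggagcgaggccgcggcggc
Tgfb1: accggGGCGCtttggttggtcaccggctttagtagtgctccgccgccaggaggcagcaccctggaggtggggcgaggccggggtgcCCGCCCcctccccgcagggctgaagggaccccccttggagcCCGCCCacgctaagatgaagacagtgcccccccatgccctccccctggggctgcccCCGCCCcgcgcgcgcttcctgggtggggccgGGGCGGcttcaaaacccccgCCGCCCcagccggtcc
Smad3: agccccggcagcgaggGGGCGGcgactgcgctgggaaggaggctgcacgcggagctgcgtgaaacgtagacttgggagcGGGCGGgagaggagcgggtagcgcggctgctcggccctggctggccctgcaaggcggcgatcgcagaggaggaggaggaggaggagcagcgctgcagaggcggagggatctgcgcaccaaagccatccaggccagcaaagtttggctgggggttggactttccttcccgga
Tgfb2: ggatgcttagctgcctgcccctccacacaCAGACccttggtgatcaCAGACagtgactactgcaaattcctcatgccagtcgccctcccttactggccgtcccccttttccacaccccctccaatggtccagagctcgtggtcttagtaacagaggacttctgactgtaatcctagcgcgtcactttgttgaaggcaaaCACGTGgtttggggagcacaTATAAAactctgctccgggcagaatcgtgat

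The GC content was 74.8% in *Tgfbr1*, 75.2% in *Tgfb1* and 69.2% in *Smad3*, against a median of 56% over 20143 promoters of protein-coding genes. It was 53.6% in *Tgfb2* and 58.4% in *Tgfbr2*. The Sp1 box GGGCGG was found 5 times in *Tgfb1*, 2 times in *Tgfbr1* and 2 times in *Smad3*, and 44.1% of all promoters held it. A TATA box stood at −31 to −26 of *Tgfb2* and an E-box at −51 to −46, which 11.2% and 6.79% of all promoters held. The Smad palindrome was in none of the 5 and in 0.184% of all promoters. CAGAC was found in *Tgfb2* and *Tgfbr2* and in 40.7% of all promoters, GGCGC in *Tgfb1* and *Tgfbr1* and in 41.7%, and the AP-1 element in none of the 5 and in 6.13%. These matches describe the letters of the window and not the binding of a factor.

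*Tgfbr1*, which codes for the type I receptor (chromosome 4, 47353222 to 47414931, plus strand), had its summits at nearly 1 position in all lists. They lay at −80 nt from the TSS under NG, at −56 nt under HG+NT and at −53 nt under HG+miR-93, between the downstream Sp1 box, which ends at −90, and the start site. At that position the fold was 1.81, 1.97 and 2.22, in the same order, over an input mean of 4 in each list. The percentile was 44.8 under NG, 64.7 under HG+NT and 83.5 under HG+miR-93, so that both high-glucose lists were above NG. The fragments gave overlapping intervals, with pileups of 8.04 (4.76 to 12.7), 8.83 (6.11 to 12.3) and 10.1 (7.55 to 13.3). The ratio of HG+miR-93 to NG was 1.26, with an interval of 0.723 to 2.28. A second cluster of start sites 32994 nt downstream held a pileup of 2.68, 1.82 and 2.72. Together with *Smad2*, *Tgfbr1* was 1 of 2 of the 10 genes whose strongest summits lay within 150 bp of each other in all lists, which was so for 12.5% of all genes.

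*Tgfbr2*, the gene of the ligand-binding type II receptor (chromosome 9, 116084293 to 116175360, minus strand), had its strongest summits in an intron. They lay at +436, +622 and +421 nt from its inner TSS at 116175265. Its fold was 1.99 under NG, 1.70 under HG+NT and 1.29 under HG+miR-93, and the percentile 58.2, 47.2 and 20.5. The pileup was 8.93 (5.46 to 13.8) under NG, 5.45 (3.38 to 8.34) under HG+NT and 5.44 (3.62 to 7.86) under HG+miR-93. The pileup was thus highest under NG and nearly equal in the high-glucose lists, and the ratio of HG+NT to NG was 0.610 (0.315 to 1.19). The input mean was 4, 2.80 and 4. In HG+miR-93 another peak, with its summit at −25 nt from the TSS at 116175360, had a slightly higher pileup, 5.64 (3.77 to 8.09), and a fold of 1.28.

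**Figure D1:**
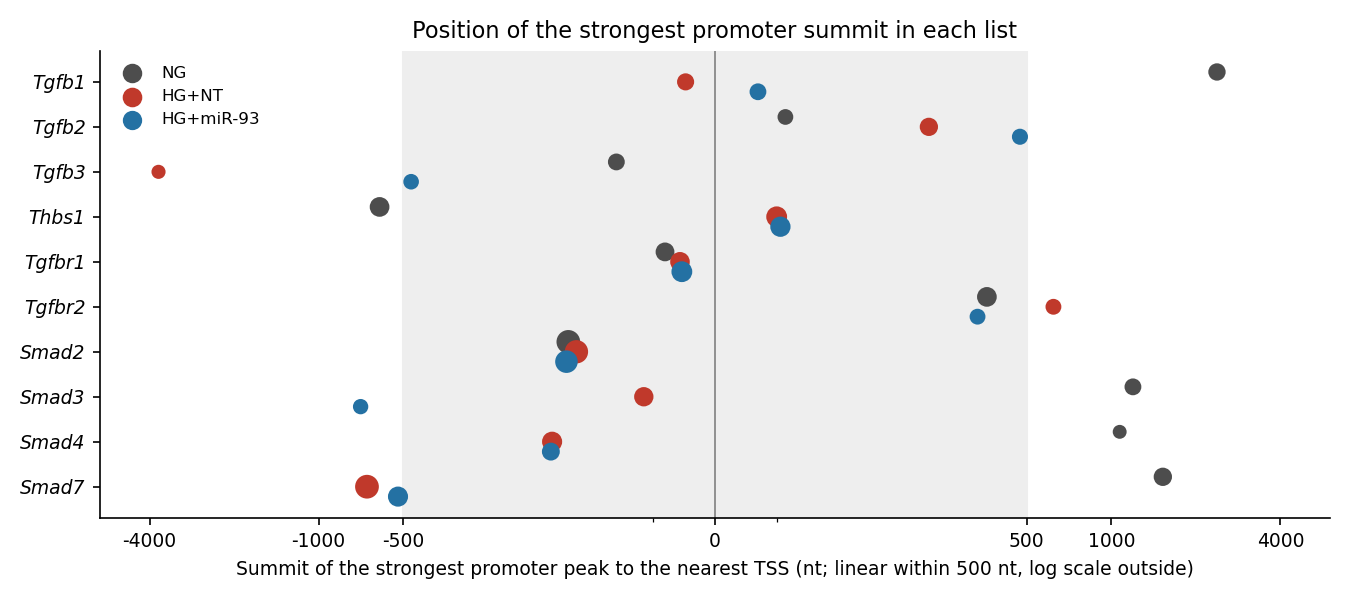
Position of the strongest promoter summit of each gene in each list, in nt from the nearest TSS (negative is upstream, the nearest TSS of *Smad3*, *Smad4* and *Smad7* is not the same in every list, the scale is linear within 500 nt, shaded, and logarithmic outside). The area of a point is proportional to the pileup, and only for *Tgfbr1* and *Smad2* do the 3 points lie within 150 nt of each other.

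Among the ligands, *Tgfb1* (chromosome 7, 25687002 to 25705077, plus strand), the ligand most often tied to renal fibrosis, had nearly equal pileups of 6.70 (3.75 to 11.1) under NG, 6.49 (4.20 to 9.58) under HG+NT and 6.22 (4.25 to 8.78) under HG+miR-93. Its fold was nevertheless 2.57, 1.97 and 1.44, and the percentile 84.6, 65.0 and 31.2. The NG summit lay in an intron at +2379 nt, those of HG+NT and HG+miR-93 at −47 and +69 nt, and the input mean at these positions was 2, 2.80 and 4. *Tgfb2* (chromosome 1, 186622792 to 186705989, minus strand), a ligand with a strong role in development, had folds of 2.12, 2.13 and 1.66 and percentiles of 66.9, 75.7 and 47.7. Its summits fell in untranslated exon sequence, at +113, +343 and +489 nt from its inner TSS at 186705700. The promoter shown above precedes the outer TSS at 186705989, from which the summits lie further downstream. Its pileup was 5.36 (2.77 to 9.36), 7.53 (5.04 to 10.8) and 5.64 (3.77 to 8.09), with HG+NT highest and all intervals overlapping.

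*Tgfb3* (chromosome 12, 86056745 to 86079041, minus strand), the remaining ligand, was the member with the lowest percentile under NG and had 3.69 under NG, 70.7 under HG+NT and 18.9 under HG+miR-93. The folds were 1.04, 2.06 and 1.25. Its pileup took the opposite order, at 6.25 (3.42 to 10.5), 4.15 (2.37 to 6.75) and 5.25 (3.46 to 7.63). The HG+NT summit with the highest fold lay at −3715 nt, outside the window that its peak of 11658 bp touched, where the input mean was 1.5. A second HG+NT peak, with its summit in a coding exon at +1202 nt, had the same pileup over an input mean of 4 and a fold of 1.03. The NG and HG+miR-93 summits, at −158 and −487 nt, had input means of 6 and 4.

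*Thbs1* (chromosome 2, 118111876 to 118127133, plus strand) reached the highest fold of the 10 genes, in both high-glucose lists. Its fold was 1.66 under NG, 3.71 under HG+NT and 3.51 under HG+miR-93, and the percentile 32.5 (4.01 to 82.3), 99.0 (93.6 to 99.9) and 99.6 (95.8 to 99.96). In HG+NT the −log10 p was 5.08, a value that 326 of the 846027 peaks reached, and *Thbs1* was the only one of the 10 genes with a −log10 q above 0, at 0.338. In HG+miR-93 the −log10 p was 4.33, reached by 141 of 900109 peaks, with a −log10 q of 0. The summits of both high-glucose lists lay 6 bp apart in untranslated exon sequence, at +99 and +105 nt, while that of NG lay at −606 nt. The number of fragments differed much less than the fold, with pileups of 8.93 (5.46 to 13.8), 10.1 (7.20 to 13.8) and 9.52 (7.04 to 12.6). The input mean was 5 at the NG summit and 2 at each of the others. The NG peak, from 118110402 to 118115103, also covered the position of the high-glucose summits, but its fold is known only at its own summit.

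The receptor Smads differed from each other. *Smad2* (chromosome 18, 76241580 to 76310963, plus strand) had the highest pileup of the 10 genes under NG and HG+miR-93, with 13.4 (9.04 to 19.1) under NG, 13.0 (9.64 to 17.1) under HG+NT and 12.0 (9.24 to 15.4) under HG+miR-93. Its summits lay at −235, −222 and −238 nt, and the ratio of HG+miR-93 to NG was 0.899 (0.573 to 1.44). The input mean there was 7, 8 and 7, the highest level at a strongest summit of the 10 genes under NG and HG+NT, so that the fold was only 1.80, 1.55 and 1.63 and the percentile 43.9, 36.3 and 46.4. By fragments, *Smad2* stood at percentiles 95.6, 95.6 and 97.6 of all genes.

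*Smad3* (chromosome 9, 63646767 to 63757994, minus strand) has 4 clusters of start sites, the last of them 91447 nt downstream of the first. At the 5′ promoter its pileup was 12.5 (8.31 to 18.1) under NG, 8.57 (5.90 to 12.0) under HG+NT and 6.61 (4.58 to 9.23) under HG+miR-93, with summits at +46, −114 and −276 nt. The ratio of HG+miR-93 to NG there was 0.528, with an interval of 0.311 to 0.904, and was the only ratio of highest promoter pileups among the 10 genes and the 3 pairs of lists whose interval left out 1. Between NG and HG+miR-93 this was so at 1 of 10 genes and at 6.43% of all genes. The median highest promoter pileup of all genes was itself lower, at 5.81 under NG and 4.86 under HG+miR-93. The *Smad3* ratio was not adjusted for this difference between the lists, so its interval does not show a loss particular to *Smad3*. The neighbouring steps, 0.685 (0.402 to 1.18) for HG+NT over NG and 0.771 (0.463 to 1.28) for HG+miR-93 over HG+NT, both included 1. The highest fold, by contrast, was that of the most downstream cluster under NG (2.42) and HG+miR-93 (2.02) and that of the 5′ promoter under HG+NT (1.59). The percentiles of 79.8, 39.6 and 73.4 therefore compared summits 92755 bp apart in the first step and 90853 bp apart in the second.

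*Smad4* (chromosome 18, 73639009 to 73703780, minus strand), the common partner, had pileups at its 5′ promoter of 8.04 (4.76 to 12.7) under NG, 9.35 (6.55 to 12.9) under HG+NT and 7.19 (5.06 to 9.91) under HG+miR-93. The summits lay at −389, −261 and −263 nt, and the fold was 1.13, 2.07 and 1.64. In NG a peak at the start site 25549 nt downstream had the higher fold, 2.07, on 9 fragments, which gave percentiles of 62.7, 71.8 and 46.6. With the most 5′ TSS of each gene alone, *Smad4* was higher by 68.4 points from NG to HG+NT, in place of 9.05. *Smad7* (chromosome 18, 75367529 to 75395935, plus strand), the inhibitory Smad and itself a target of the pathway, had 5′ pileups of 11.2 (7.23 to 16.5) under NG, 13.5 (10.1 to 17.7) under HG+NT and 9.33 (6.88 to 12.4) under HG+miR-93. Its percentile was 68.6 under NG, 86.9 (57.4 to 97.3) under HG+NT and 20.7 (6.84 to 48.2) under HG+miR-93. HG+NT was highest on both scales, but the pileup of HG+miR-93 still stood at percentile 92.4 of all genes.

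**Figure D2:**
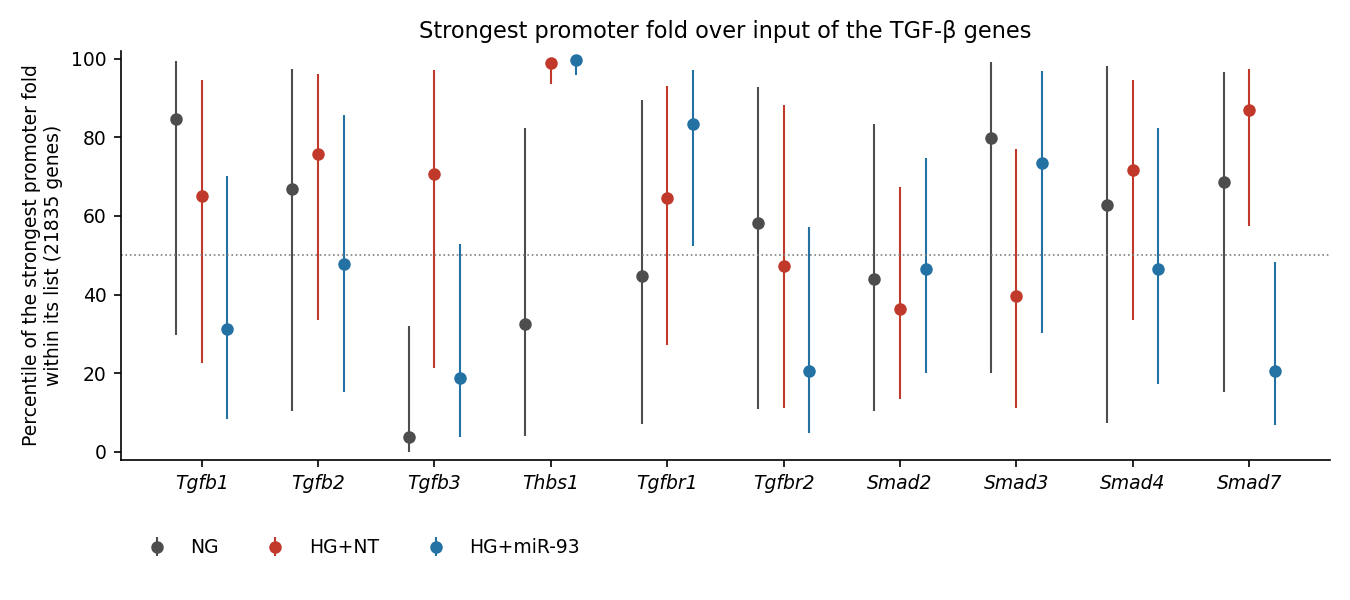
Percentile of the strongest promoter fold of each gene within its list, by condition, with 95% counting intervals as bars and the middle of all genes as a dotted line. *Thbs1* stands at 99.0 and 99.6 in the high-glucose lists against 32.5 under NG, and most other intervals overlap.

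As a group, the 10 promoters had higher pileups in the median than all genes in every list. The median of the highest promoter pileup was 8.49 under NG, 8.70 under HG+NT and 6.90 under HG+miR-93, against 5.81, 4.93 and 4.86 over all genes, which placed the members at median percentiles of 71.5, 84.4 and 77.4. Ranked by fold, the medians were 60.5, 67.8 and 46.5. The input mean at the strongest summit was also higher at these genes, with medians of 3.5, 3.5 and 4 against 2 over all genes in each list, and its part in the difference between the rankings was not tested.

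**Figure D3:**
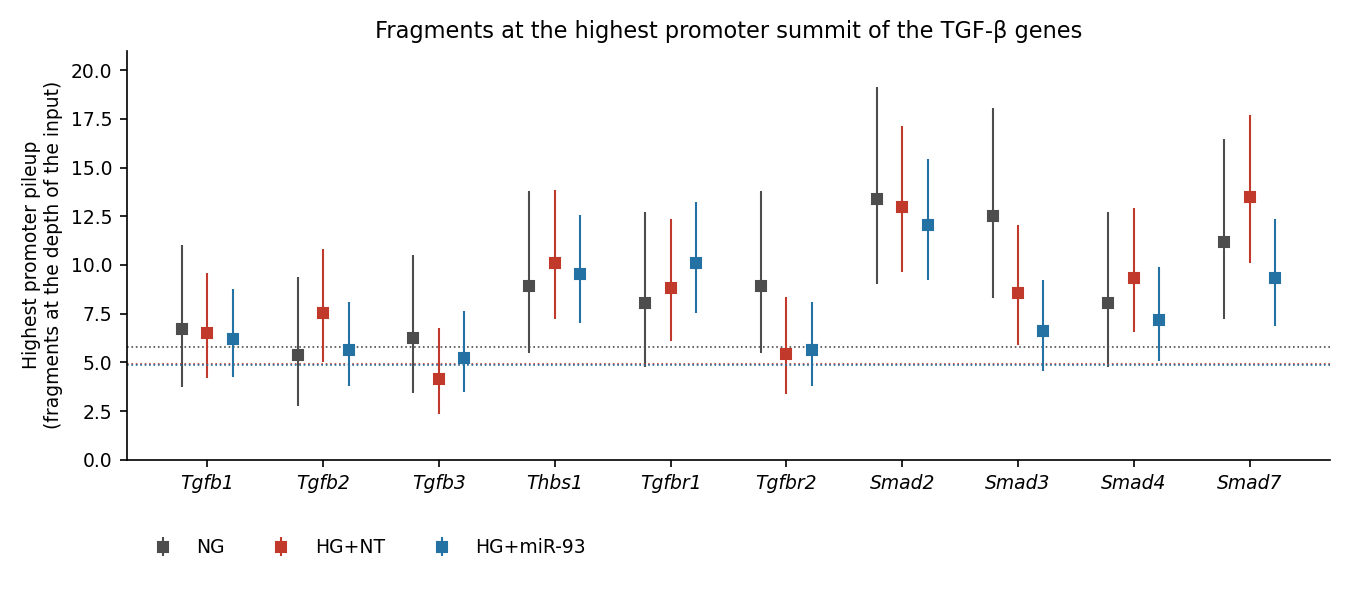
Highest promoter pileup of each gene by condition, in input-scaled fragments, with 95% exact Poisson intervals. Dotted lines mark the medians of all genes (5.81 under NG, 4.93 under HG+NT, 4.86 under HG+miR-93), and the points of *Smad2* lie between 12.0 and 13.4.

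From NG to HG+NT, the step that raises glucose and adds the nontargeting mimic, *Thbs1* and *Tgfb3* were higher by at least 25 percentile points and *Smad3* was lower. These were 2 of 10 genes upwards, where 20.0% of all genes were called, and 1 of 10 downwards, where 20.3% were. The change was 66.6 points for *Thbs1* (11.3 to 95.9), 67.0 for *Tgfb3* (−10.7 to 97.1) and −40.2 for *Smad3* (−87.9 to 57.1). The interval left out 0 at 1 of the 10 genes, *Thbs1*, against 2.18% of all genes. It compared *Thbs1* summits 705 bp apart over input means of 5 and 2, and the NG fold at the HG+NT summit is not known. The pileup ratio of *Thbs1* was 1.13 (0.645 to 2.05). Ranked by pileup, *Thbs1* changed by 15.1 points and *Tgfb3* by −19.8. The only gene past 25 points on that ranking was *Tgfb2*, at 29.6, with a pileup ratio of 1.41 (0.695 to 3.02). By the pileup of the same peaks, *Smad4* and *Smad7* were at least 1.5 times higher (7.73% of all genes) and *Tgfb3* and *Tgfbr2* at least 1.5 times lower (19.5%). The *Smad4* and *Smad7* ratios, 2.33 and 1.78, compared summits 26881 and 4645 bp apart. At their 5′ promoters the ratios were 1.16 (0.643 to 2.18) and 1.21 (0.737 to 2.03). With the highest pileup of each gene, the ratio's interval left out 1 at 0 of 10 genes and at 3.94% of all genes. The median change of the 10 genes was 8.92 points, beside 0.0916 over all genes, and the median ratio of the highest pileups was 1.03, beside 0.894.

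From HG+NT to HG+miR-93, the step that exchanges the mimics at the same glucose, 6 of the 10 genes were lower by at least 25 points (*Tgfb1*, *Tgfb2*, *Tgfb3*, *Tgfbr2*, *Smad4* and *Smad7*), where 16.0% of all genes were. A single gene, *Smad3*, was higher by that much, where 16.1% of all genes were. The changes ran from −66.2 points for *Smad7* (−90.4 to −9.18) through −51.8 for *Tgfb3* and −33.7 for *Tgfb1* to −28.0 for *Tgfb2*, −26.7 for *Tgfbr2* and −25.2 for *Smad4*. The last 3 lay just past the limit, and the interval left out 0 only at *Smad7*, 1 of 10 genes against 2.83% of all genes. Ranked by −log10 p, 4 of the 10 genes were lower by at least 25 points, and with the most 5′ TSS alone 4 were. The median change was −26.0 points, beside 0.0321 over all genes.

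The pileups differed less than the folds. By pileup, 0 of the 10 genes were at least 1.5 times higher (4.35% of all genes) and only *Smad3* was at least 1.5 times lower (9.02%), between sites 90853 bp apart. The ratio was 0.958 (0.550 to 1.69) at *Tgfb1*, 0.748 (0.432 to 1.298) at *Tgfb2* and 1.26 (0.656 to 2.51) at *Tgfb3*. It was 0.998 (0.547 to 1.85) at *Tgfbr2*, 0.769 (0.473 to 1.25) at *Smad4* and 0.691 (0.457 to 1.04) at *Smad7*. The median ratio of the highest pileups was 0.934, close to the 0.952 of all genes, and the interval left out 1 at 0 of 10 genes and 2.24% of all. Ranked by pileup in place of fold, none of the 10 genes was past 25 points in either direction, and the median change was 1.68 points. *Smad7* changed by −3.87 points on this ranking, and by −8.91 points when the folds of all promoter peaks of a gene were summed. With only the peaks whose summit lay within 500 nt of a TSS, 5 of the 10 genes had a value in every list, and 0 of them were lower by 25 points. This setting dropped *Smad7*, *Tgfb1*, *Tgfb3*, *Tgfbr2* and *Thbs1*. Of the genes called lower, only *Tgfb2* and *Smad4* could therefore be counted, at −21.3 and −19.5 points.

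*Thbs1* and *Tgfbr1* were not among those lower. *Thbs1* changed by 0.614 points (−4.12 to 6.33) and by a pileup ratio of 0.940 (0.605 to 1.47), at summits 6 bp apart, so that its high fold under HG+NT was present under HG+miR-93 as well. *Tgfbr1* changed by 18.8 points (−40.6 to 69.9), with a pileup ratio of 1.14 (0.729 to 1.82) at summits 3 bp apart.

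A change under high glucose that the miR-93 mimic turned back would place HG+NT above or below both other lists. HG+NT was the highest of the percentiles at *Tgfb2*, *Tgfb3*, *Smad4* and *Smad7*, 4 of 10 genes, and the lowest at *Smad2* and *Smad3*, 2 of 10, where 31.0% of all genes were highest and 31.0% lowest. Both steps share the HG+NT list, so that its counting error alone can move a gene in opposite directions.

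The change of a fold is the sum, on the log2 scale, of a part from the pileup and a part from the input mean. The input was the same for all lists, so its part was 0 wherever the summits shared their input mean, as at *Tgfbr1* in both steps, and differed from 0 where the summit had moved to a position with another input mean. From NG to HG+NT the log2 change of fold at *Thbs1* was 1.16, of which the pileup gave 0.16 and the input 1.00. At *Tgfb3* the pileup gave −0.49 and the input 1.49, and at *Smad3* 0.40 and −1. At *Smad7* the pileup gave −0.49 and the input −0.42 between the mimics, at summits 151 bp apart. The pileup gave −0.05 and the input −0.40 at *Tgfb1*, and 0.28 and −1 at *Tgfb3*. At *Tgfb2* and *Smad4* the whole change, −0.36 and −0.34, came from the pileup. The input part was the larger in size at 5 of 10 genes in the first step, where it was so for 37.0% of all genes, and at 5 of 10 in the second, where it was so for 43.9%.

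**Figure D4:**
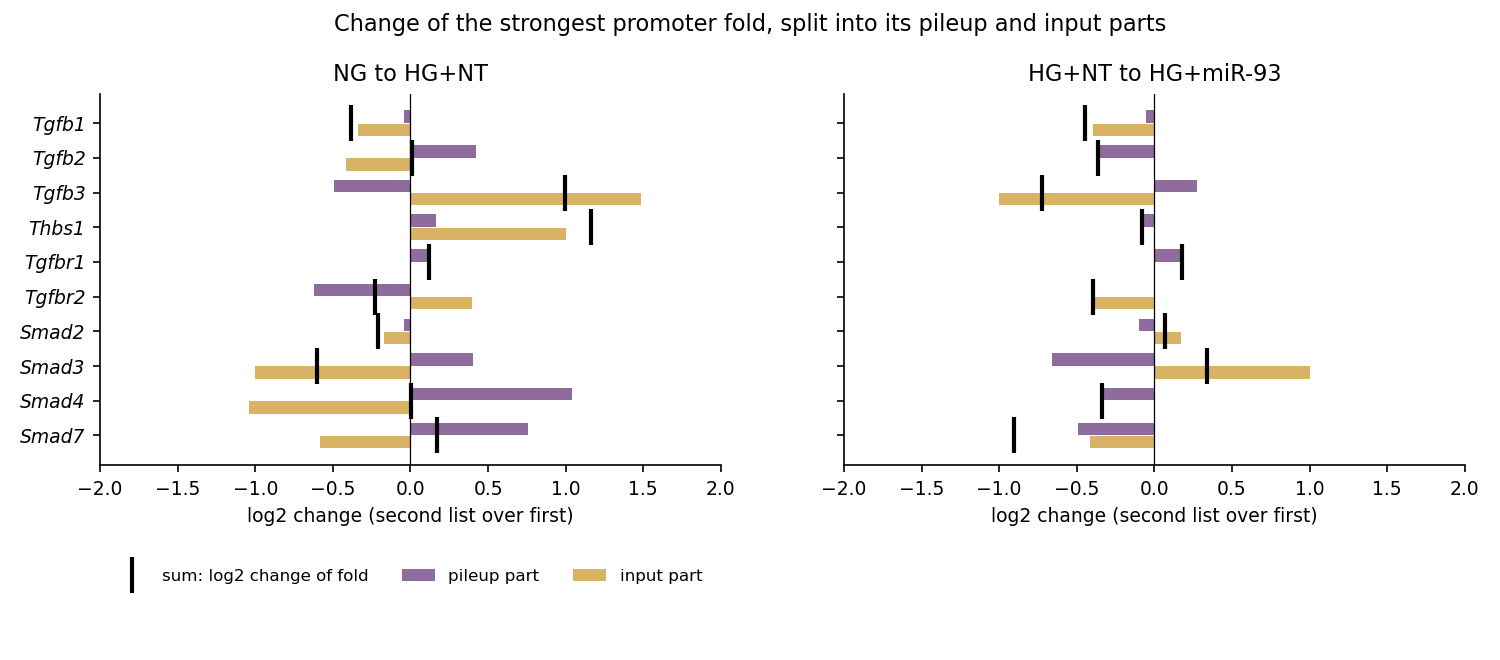
The log2 change of the strongest promoter fold (black mark) of each gene and its parts, the change of the pileup (purple bar) and that of the input mean (yellow bar), for both steps. From NG to HG+NT the input part was 1.00 of a change of 1.16 at *Thbs1*, while at *Tgfb3* it was 1.49, more than the whole change of 0.99, with a pileup part of −0.49, and *Tgfbr1* has no input part in either step.

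The fragments also differed between the start sites of a gene. *Tgfbr1*, *Smad2*, *Smad3*, *Smad4* and *Smad7* have peaks at start sites more than 1000 nt downstream of the first cluster. In 15 of 15 combinations of these 5 genes with the lists, the 5′ cluster held the highest pileup, whereas it held the highest fold in 11 of 15. Over all genes with peaks at both kinds of cluster, the shares of such combinations were 70.5% by pileup and 55.5% by fold. The lists repeat the same 5 genes over the same input, so that the 15 combinations are not independent. At *Smad2* the 5′ pileups of 12.0 to 13.4 stood beside 1.55 to 3.57 at the cluster 19541 nt downstream. At *Smad4* the downstream cluster held 4.02 under NG, 2.34 under HG+NT and 1.36 under HG+miR-93, on 9, 9 and 7 fragments. The downstream clusters of *Smad3* ranged from 3.50 to 6.25 across the lists.

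**Figure D5:**
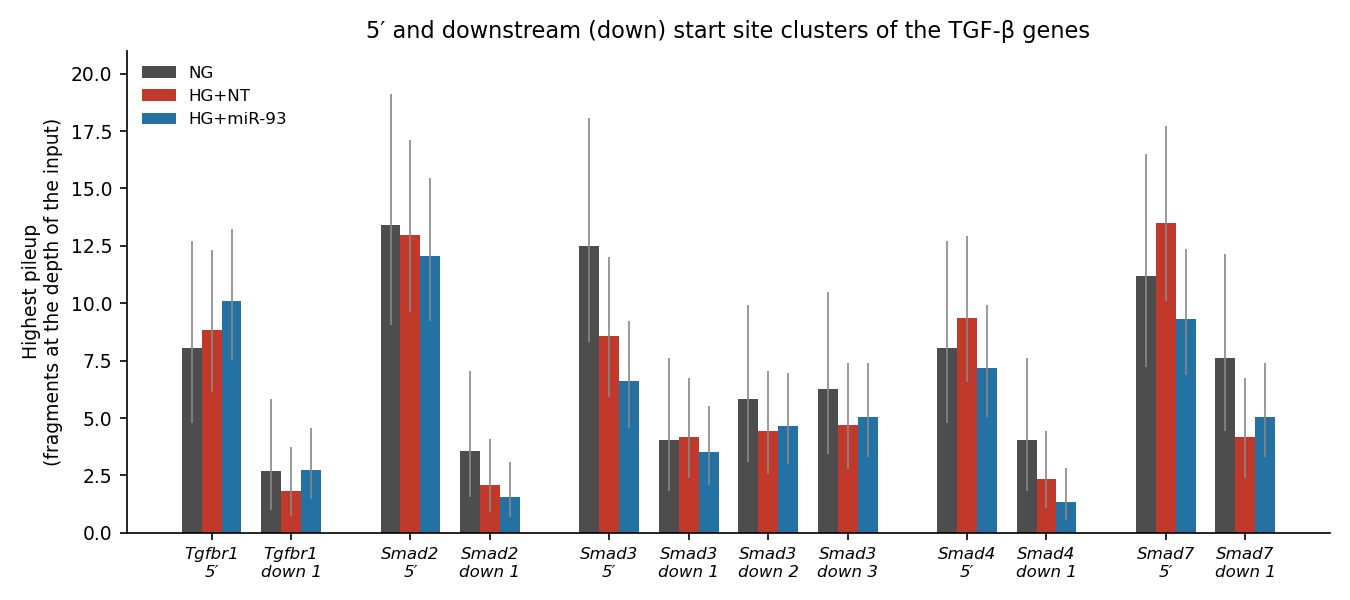
Highest pileup at the 5′ and the downstream clusters of start sites of the 5 genes that have both, by condition, in input-scaled fragments, with 95% exact Poisson intervals. The 5′ bar is the highest of each gene in each list, and at *Smad3* it is 12.5 under NG, 8.57 under HG+NT and 6.61 under HG+miR-93.

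Among 57 other genes of the pathway, listed by role, the median percentile by fold was 66.3 under NG, 71.1 under HG+NT and 68.0 under HG+miR-93. From NG to HG+NT 15 were higher and 16 lower by at least 25 points, 26.3% and 28.1% of them, beside the 20.0% and 20.3% of all genes. From HG+NT to HG+miR-93 10 were higher and 10 lower, 17.5% each, beside the 16.1% and 16.0% of all genes. The median change of that step was −0.291 points beside −26.0 at the 10 ligand, receptor and Smad genes. Of the 11 other receptors, 4 were lower and 1 was higher in that step, with a median change of −10.7 points, and in the first step 4 were higher and 2 lower. Of 12 target genes, 5 were higher and 2 lower in the first step, and their median percentiles were 53.6, 81.9 and 89.5. Of 10 genes of ligand latency and activation, 2 were higher and 5 lower in that step, with a median change of −18.7 points. Of 11 inhibitors and repressors 1 was higher and 4 were lower, and of 6 adaptors and kinases 0 were higher and 2 lower. Of the 4 other Smads 1 was higher and 0 lower, and of 3 cofactors 2 were higher and 1 was lower. From HG+NT to HG+miR-93, 2 inhibitors and repressors were higher and 0 lower. Of the latency and activation genes 2 were higher and 1 was lower, and of the adaptors and kinases 2 were higher and 2 lower. Targets, other Smads and cofactors had 1 higher and 1 lower each.

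Of the genes with the largest changes, *Ep300*, a histone acetyltransferase that Smads recruit, had percentiles of 15.01 under NG and 97.3 under HG+NT with a pileup ratio of 1.29, while the input mean was 6 and 2.80. *Acta2*, the smooth muscle actin gene that TGF-β induces, had 15.5 and 95.8 with a ratio of 1.43. Its input mean was 4 and 2.2, at summits 1755 bp apart. *Map3k7*, the kinase TAK1 of the branch without Smads, had 70.0 and 3.47 with a ratio of 0.721, and *Bambi*, a decoy receptor, 53.7 and 1.80 with a ratio of 0.612. The input mean was 4.6 and 9 at *Map3k7*, and 4 and 7 at *Bambi*. Between the mimics, *Grem1*, a secreted antagonist of BMPs, had 11.3 under HG+NT and 86.6 under HG+miR-93 with a ratio of 1.28. The receptor genes *Acvr1c*, *Bmpr1a* and *Acvr1b* had 19.4 and 84.7, 88.4 and 21.3, and 85.9 and 19.5, in that order, with ratios of 1.08, 0.242 and 0.942. The *Bmpr1a* summits lay 42771 bp apart.

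The lists as a whole bear on these values. The median summit held 6, 10 and 12 fragments, and a −log10 q above 0 was reached by 420, 452 and 21 peaks. Ranked by fragments, 8 podocyte markers had median percentiles of 44.7, 47.2 and 49.9, beside 51.5, 49.4 and 48.4 over all genes, and ranked by fold they had 45.6, 69.7 and 52.7. The promoters of the labelled cell type thus stood near the middle of all genes by fragments. By fold their median was above it under HG+NT, where single markers ran from 13.6 to 96.7. By fragments 4 immune markers had 15.7, 19.2 and 30.8, and endothelial, mesangial and tubular markers, 4 each, ranged from 40.2 to 57.0 in their medians. By fold the mesangial markers had 63.8, 65.0 and 75.7, and the endothelial markers 40.6, 55.9 and 63.7. The tubular markers had 25.6, 53.5 and 73.3 by fold, and the immune markers 27.1, 50 and 38.2. The rank by fold thus did not mark the cell type. The chromosomes of the 10 genes had median changes of −4.50 to 0.490 points in the first step and −1.52 to 0.196 in the second, both small beside the changes of single genes.

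MicroRNAs act on mRNAs, mostly through matches of their seed in 3′ UTRs. The seed of the transfected miR-93, bases 2 to 8, is shown in capitals in the RefSeq sequence of the mature strand.
mmu-miR-93-5p: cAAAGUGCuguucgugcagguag
The reverse complement of the seed, GCACTTT, was searched in the longest 3′ UTR of each gene of GENCODE vM21. It was found in 3 of the 10 genes, 1 time in *Tgfbr2*, 2 times in *Smad2* and 1 time in *Smad7*, and in 11.8% of 21004 genes with a 3′ UTR. The 3′ UTRs of the 10 genes had a median length of 2380 nt, against 961 nt over all genes. The *Tgfbr2* match lies on the minus strand at chr9:116090074-116090080, 298 nt into a 3′ UTR of 6085 nt, and is shown in capitals with its neighbouring bases.
Tgfbr2 3′ UTR site: agccaataacgtttGCACTTTa
The lists measure chromatin and hold no RNA level, so whether these matches were used was not measured. Between HG+NT and HG+miR-93 the promoters of these 3 genes had pileup ratios of 0.998 at *Tgfbr2*, 0.928 at *Smad2* and 0.691 at *Smad7*, each with an interval that included 1.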

How the data were processed

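The DNase-Seq reads had been trimmed by the authors (TrimGalore!), aligned to mm10 (Bowtie) and freed of duplicates, and peaks had been called by MACS2 over the genomic input with settings recommended for this assay, whose values are not given in the sources used here. The submitters' processing notes also name CASAVA 1.8.2. The deposited lists give a fold, which is a ratio over the input, and −log10 p and −log10 q values, as the authors' peak caller wrote them, and are named as joint sets of the replicates. They contain no counts, so no count model was used.

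Start sites of protein-coding transcripts came from GENCODE vM21, on chromosomes 1 to 19, X and Y, and an overlap of 1 bp sufficed. For each peak, fragments and input mean were solved from its fold and p, with means at the background of 1.43 or at multiples of 0.02 above it. The solution was unique for 99.8% or more of the peaks of each list and for every promoter peak of the 10 genes. Percentiles were computed over 21835 genes. Limits of 25 percentile points and of a pileup ratio of 1.5 were used for calls. Recovery and overlaps were tested on simulated data. The intervals of the percentile changes and ratios over all genes, the start-site clusters of all genes and the split of the fold into its parts were added with the values in view.

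The 10 genes and the other lists were chosen with earlier results of these data known. Beside the 10 genes, the 2 other pathway genes with the largest change in each direction past the limit were named for each step. The alternatives were ranking by −log10 p or pileup, summed folds, windows of 1000 nt, summits within 500 nt, the 5′ TSS alone, peaks with a −log10 p of at least 1.3, the fold over the chromosome's median, a limit of 15 points, the largest of several solutions, the peak with the highest pileup and sites within 500 bp. Promoter sequences came from RefSeq (GRCm38.p6) and 3′ UTRs from GENCODE vM21. Of the 10 genes, *Tgfb3*, *Thbs1*, *Smad2*, *Smad4* and *Smad7* were not matched in the promoter table. Computations used scipy 1.17.1, numpy 2.4.6 and pandas 2.3.3 under Python 3.11.15, and figures matplotlib 3.10.9.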

Additional observations from a re-analysis of the deposited data

How the results depend on the processing

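The lists gave 1 value per condition, so no replicate could be left out. No paired analysis was possible because the replicates of a condition were joined in 1 list. With 6 to 12 fragments at the median summit, only large differences at a single promoter could be told from counting error.

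Ranked by pileup, the genes past 25 points numbered 1 up and 0 down from NG to HG+NT and 0 up and 0 down from HG+NT to HG+miR-93, and the median change of the latter was 1.68 points in place of −26.0. This ranking turned the direction of 6 of 20 changes, at *Tgfb3* (−19.8 in the first step, 20.2 in the second), *Tgfb1* (10.5 and 1.32), *Tgfbr2* (4.90 in the second) and *Smad3* (−9.35 in the second), and gave −3.87 at *Smad7*. Summed folds gave 0 up and 1 down in the second step and a median of −1.84 points in the first. They turned 6 of 20 changes, at *Tgfbr2* (29.4 in the first step, 12.6 in the second), *Tgfb2* (−29.1), *Smad7* (−9.94) and *Tgfbr1* (−2.84) in the first, and *Thbs1* (−0.657) in the second, where *Smad7* had −8.91. A window of 1000 nt gave 0 up in the second step and 1 gene with HG+NT lowest, and turned *Smad2* (19.2 and −16.5). The 5′ TSS alone gave the same values, 0 and 1, with −2.03 at *Smad3* in the second step and 68.4 at *Smad4* in the first, where 3 genes were then up.

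Summits within 500 nt left 5 of the 10 genes and dropped *Smad7*, *Tgfb1*, *Tgfb3*, *Tgfbr2* and *Thbs1*. Of those left, 1 was up in the first step (*Smad4*, 62.4 points in place of 9.05). In the second step 0 were up and 0 down, where *Smad3* had 0.318 in place of 33.8, *Tgfb2* −21.3 and *Smad4* −19.5. These summits gave a median of 0.318 points in the second step, 2 genes with HG+NT highest, and 0 genes past a pileup ratio of 1.5 in either step. Peaks with a −log10 p of at least 1.3 in all lists left *Tgfbr1* alone, with 0 up and 0 down in the first step, 0 down in the second, a change of 34.5 points, and 0 genes with HG+NT highest or lowest. A limit of 15 points gave 4 up and 2 down in the first step and 2 up in the second. The peak with the highest pileup gave 0 genes at least 1.5 times higher in the first step and 0 lower in the second. A distance of 500 bp gave 4 genes with summits at 1 site. The cause of these differences was not tested. In all, 50 counts and medians and 123 changes of single genes stayed within 1.5 times or within their counting interval. Among the 123 were changes named above as turned, such as that of *Tgfb2* under summed folds. These intervals were wide, at *Tgfb2* −64.1 to 85.9 points in the first step, so that staying within them does not show that a change held. A further 2 changes of single genes, those of *Smad7* above, moved past their interval.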
